A study of Rhodotorula toruloides with 9 samples.

Results

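Transcript levels of the yeast R. toruloides, strain IFO0880, were compared between cultures on d-galUA and cultures on glycerol, for every gene model of the genome annotation. It used 6 of the 9 RNA-seq libraries of the study, and 8479 of 8578 gene models, those not at 0 throughout, were tested. R. toruloides is a red, lipid-forming basidiomycete yeast, and the study profiled transcripts on d-galUA, d-glc and glycerol to find the genes with which it uses d-galUA. Both groups were liquid cultures of the strain IFO 0880 in Yeast Nitrogen Base medium. The difference named between them was the carbon source: D-galacturonic acid in one group and glycerol in the other. No genetic change is named for either group. By the study's methods the triplicate cultures of a carbon source were started from a single rich-medium culture, so p-values measure the spread between these cultures, and the labels do not say which cultures were separate. The sources differ on the concentration of the carbon source, on harvest in log phase or at the onset of stationary phase, and on the RNA extraction kit.

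The d-galUA group had 3 libraries labelled D-galacturonic acid RNAseq 1 to 3. The glycerol group had the 2 libraries labelled Glycerol RNAseq 1 and 2 and the library labelled D-glucose RNAseq 4. The last was counted as glycerol because the glycerol column of the study's own expression table was the mean of these 3 libraries, to a median difference of 5.95e-05% over 1995 genes, while the next best set of 3 differed by 9.79%. The label and this use are in conflict, so the counts over all genes are also given without that library, as are the calls in the gene lists where they differ. Depth, in M mapped reads (M, mega) derived from the coverage, was 33.6 to 36.9 on d-galUA, 35.0 and 36.6 in the libraries labelled glycerol, and 25.8 in the library labelled D-glucose 4. Levels are in FPKM, which is relative to gene length and to the mapped reads of a library, so a change in the total RNA of a cell or in the number of cells cannot be seen. Per-library values follow the order d-galUA 1, 2 and 3, then glycerol 1, glycerol 2 and the library labelled D-glucose 4.

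D-galUA is the main sugar acid of pectin. In filamentous fungi it is taken up by sugar-transporter family proteins, reduced to l-galactonate, dehydrated, cleaved to pyruvate and l-glyceraldehyde, and the l-glyceraldehyde is reduced to glycerol. Glycerol given as a carbon source is taken up by a proton symporter in S. cerevisiae, phosphorylated by a kinase and oxidized at the mitochondrial inner membrane. Both substrates therefore meet at the level of glycerol and of the lower part of glycolysis, and neither enters as a hexose.

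A total of 589 genes (6.95% of those tested) were called higher and 653 (7.7%) were called lower on d-galUA than on glycerol. Here a called gene is one with an adjusted p under 0.05, a mean of 5 FPKM or more on either carbon source and a ratio of means of 2 or more. By the adjusted p alone, 2138 genes were higher (25.2%) and 2042 lower (24.1%), and the median log2 fold change over all genes tested was 0.03. The change was at least 4-fold for 191 of the higher and 214 of the lower genes, and at least 16-fold for 44 and 64. The 3 d-galUA values lay outside the range of the 3 glycerol values for 588 of the higher and 649 of the lower genes, and for 66.7% of all genes tested. Leaving out the library labelled D-glucose 4 gave 609 higher and 629 lower genes, of which 569 and 608 were among those called with it, and no gene was called in the opposite direction. With the libraries grouped as labelled, 412 and 392 genes were called, of which 393 and 379 were the same.

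**Figure D1:**
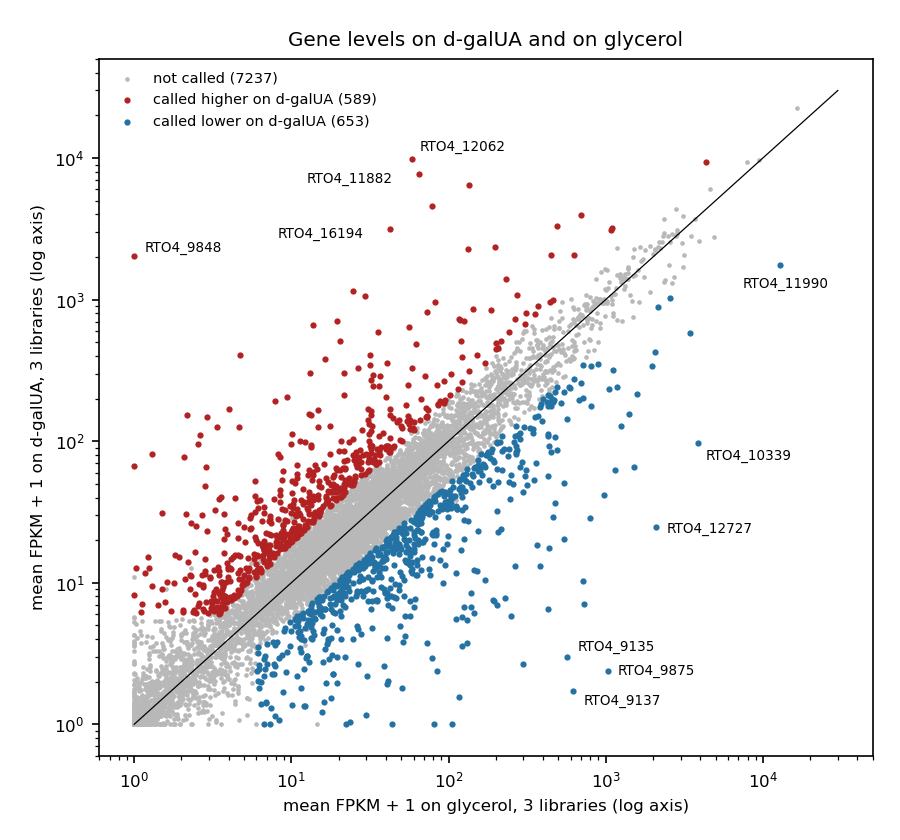
Mean FPKM + 1 of each of the 8479 genes tested, on glycerol (x axis, 3 libraries including the one labelled D-glucose 4) and on d-galUA (y axis, 3 libraries), both on log axes, with the line of equal levels. The 589 genes called higher are red, the 653 called lower are blue, and RTO4_9848 lies on the left edge because it was listed at 0 on glycerol.

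The 10 largest increases included genes of d-galUA catabolism and uptake, a MAP kinase ortholog and genes with no annotation in the sources used here. The study assigned 4 enzymes to d-galUA catabolism, in part for their higher levels on d-galUA in these libraries. They took 3.77, 3.94 and 4.17% of the TPM of the d-galUA libraries, and 0.144, 0.147 and 0.13% in the glycerol group. RTO4_12062, the putative l-galactonate dehydratase, had FPKM values of 9607, 9800 and 10130 on d-galUA and 45.3, 49.2 and 77.4 on glycerol, 172-fold higher (log2 fold change 7.44 ± 0.17 SE, adjusted p = 7.2e-10). RTO4_11882, the d-galUA reductase homolog, was at 7070, 7516 and 8414 against 60.7, 59.1 and 71.5, or 120-fold higher. The lowest d-galUA library was far above the highest glycerol library for both genes. RTO4_12061, the aldolase homolog, was 47.6-fold higher. RTO4_9774, the l-glyceraldehyde reductase homolog, was 5.69-fold higher, with 3639, 4054 and 4251 against 791, 705 and 602. The list of noted sugar transporters held 7 genes, of which 5 were called higher and 2 lower. RTO4_16194 was at 3246, 3011 and 3179 on d-galUA and at 39.3, 40.0 and 44.8 on glycerol, and its ratio was 76-fold. RTO4_9848, which the study notes as a paralog of the transporter RTO4_9841, was at 1702, 2368 and 2053 on d-galUA and listed at 0 in all 3 glycerol libraries. By the study, RTO4_9841 was itself induced on d-galUA, and its disruption lowered fitness there. How reads that fit more than 1 paralog were shared among RTO4_9841, RTO4_9846 and RTO4_9848 is not given in the sources used here, so their separate levels are uncertain. The transporters called lower were RTO4_13731 and RTO4_13727, which are noted as GAT-1 homologs. GAT-1 transports d-galUA in Neurospora crassa. RTO4_13731 was at 48.3, 51.1 and 52.8 on d-galUA and at 234, 257 and 232 on glycerol, 4.75-fold lower. With the libraries as labelled, RTO4_13727 and the transporter RTO4_10452 were not called.

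Of the 10 genes with the largest ratio in favor of d-galUA, only RTO4_11882, of the aldo-keto reductase genes GCY1 and YPR1, and RTO4_12060 carry an S. cerevisiae ortholog symbol in the annotation used. RTO4_12060 is annotated as an ortholog of FUS3 and KSS1, MAP kinases of mating and filamentous growth in S. cerevisiae. Its FPKM was 81.4, 78.8 and 81.6 on d-galUA and 0.162, 0.221 and 0.501 on glycerol, 274-fold higher (log2 fold change 5.99 ± 0.13 SE, adjusted p = 4.2e-10). Every glycerol library was under 1 FPKM for this gene. RTO4_11573 was at 416, 389 and 416 against 1.97, 2.72 and 6.34, and RTO4_9308 at 152, 159 and 147 against 0.731, 0.983 and 1.82. These 2 genes have no annotation here, and they were 111-fold and 130-fold higher. RTO4_16798 was 76.6-fold higher on d-galUA, with 134, 154 and 150 against 1.97, 2.06 and 1.68, and on d-glc it lay between, at 36.9, 36 and 27.8. RTO4_15897 was at 62.4, 66.9 and 68.8 on d-galUA and listed at 0 in the glycerol group.

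Several of the genes with the largest decreases were close to 0 on d-galUA. None of these 10 genes has an ortholog symbol, but the annotation used here mostly stops above their d-galUA levels, so they could hardly carry one. RTO4_9875 was at 0.916, 1.93 and 1.28 on d-galUA and at 824, 865 and 1394 on glycerol, 747-fold lower (log2 fold change -8.74 ± 0.24 SE, adjusted p = 1.6e-09). On d-glc it was at 14.1, 15.7 and 22.2, nearer to d-galUA than to glycerol. RTO4_9137 was at 0.636, 0.556 and 0.997 against 709, 723 and 434, and RTO4_9135 at 1.59, 1.98 and 2.35 against 617, 668 and 417. The model between them, RTO4_9136, was listed at 0 in the d-galUA libraries and was at 102, 109 and 102 on glycerol. RTO4_16349 was at 1.19, 2.11 and 1.74 against 295, 297 and 299, and at 210, 243 and 316 on d-glc, so its low level was that of the d-galUA libraries among the 3 carbon sources. RTO4_12727 fell from 2054, 1923 and 2274 on glycerol to 19.4, 22.9 and 29.0 on d-galUA. RTO4_9949 was at 752, 530 and 907 on glycerol and at 8.14, 10.2 and 0 on d-galUA, and the 0 gives it a large error (log2 fold change -7.25 ± 0.79 SE). RTO4_11536 was at 172, 68.2 and 0 on glycerol and listed at 0 on d-galUA, so its groups overlapped, and its adjusted p of 0.026 was 0.072 in a fit of the 6 libraries alone and 0.063 to 0.1 when any of the other 5 libraries was left out. RTO4_12753 and RTO4_8662 were 210-fold and 78-fold lower.

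**Figure D2:**
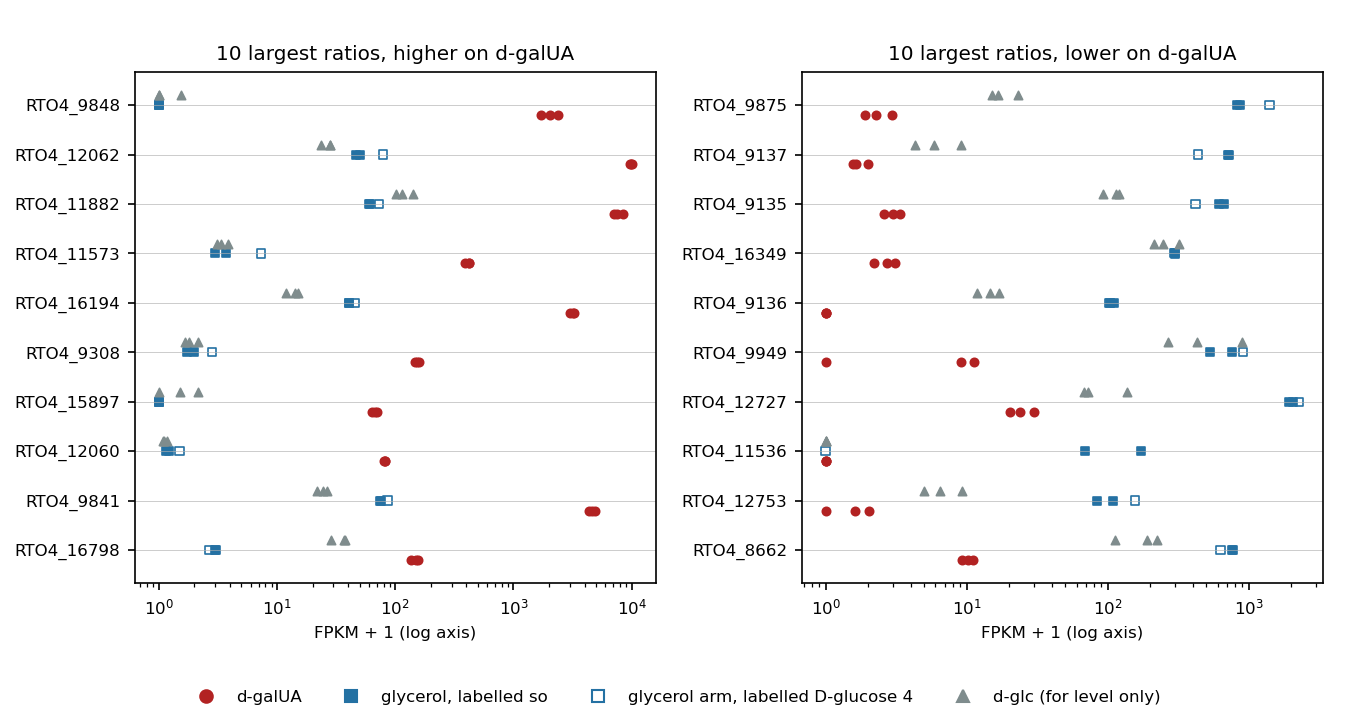
FPKM + 1 in each library (x axis, log) for the 10 genes with the largest ratio in each direction (rows), with d-galUA libraries as red circles, labelled glycerol libraries as filled squares, the library labelled D-glucose 4 as an open square and d-glc libraries as grey triangles. In FPKM, RTO4_12062 sits between 9607 and 10130 on d-galUA and between 45.3 and 77.4 on glycerol, while RTO4_9875 is under 2 on d-galUA and at 824 to 1394 on glycerol.

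Among abundant genes, 19 of those called higher had a mean above 1000 FPKM on d-galUA and 17 of those called lower had one above 1000 on glycerol. The most abundant gene called higher besides RTO4_12062 was RTO4_12704, an ortholog of PET9 and AAC3, which encode the mitochondrial ADP/ATP carrier in S. cerevisiae. Its values were 8586, 9658 and 9791 on d-galUA and 4512, 4532 and 4003 on glycerol, 2.15-fold higher (log2 fold change 1.10 ± 0.18 SE). Quantile normalization brought this change to 0.71, and the mean on d-glc was 10630. RTO4_13820, with no annotation here, was at 3162, 3364 and 3326 against 537, 545 and 381. RTO4_13371 and RTO4_CAND64, close neighbors on scaffold 3, were 2.84-fold and 2.91-fold higher, and neither was called with the libraries as labelled.

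The most abundant gene called lower was RTO4_11990, an ortholog of RGT2 and SNF3, the membrane sensors of extracellular glucose in S. cerevisiae, which belong to the sugar-transporter family. It was at 1692, 1857 and 1711 on d-galUA and at 12677, 14726 and 11026 on glycerol, 7.31-fold lower (log2 fold change -2.86 ± 0.14 SE, adjusted p = 8.7e-08), and its mean on d-glc was 611. RTO4_15438, of the ADH1, ADH2, ADH3 and ADH5 family of alcohol dehydrogenases, was at 282, 206 and 162 against 1772, 1389 and 1596, 7.33-fold lower. RTO4_10339, which has no annotation here, was at 90.3, 91.9 and 105 against 3927, 4210 and 3417. The lowest glycerol library was above the highest d-galUA library for each of these 3 genes. Across all genes tested, the ranges of the groups did not overlap for 66.7%. None of the 3 was called with the libraries as labelled, when the library labelled D-glucose 4 was part of the d-glc group. All 3 were called when that library was left out.

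Most called genes had no neighbor on the scaffold called in the same direction. Of all genes tested, 6.95% were called higher and 7.7% lower, and whether neighbors were called together more often than these shares give was not tested. Of the genes called higher, 427 had no neighbor called in the same direction, 64 pairs and 6 runs of 3 were counted, and the longest runs had 4 genes, of which there were 4. For genes called lower the counts were 449, 74, 16 and 2. Some of these runs share sequence: 319 of the 1242 called models overlap another model (25.7%, against 24.4% of those tested). A model called in the same direction was overlapped by 87 of them. Whether strand was used in counting is not given, so the levels of overlapping models may not be separate. The run on scaffold 2 from 370665 to 378918 held RTO4_12060, RTO4_12061, RTO4_CAND94 and RTO4_12062. RTO4_CAND94, which lies between the aldolase and the dehydratase, was at 37.5, 37.7 and 42.8 on d-galUA and at 2.98, 2.54 and 2.22 on glycerol, 15.3-fold higher. The next model, RTO4_12063, had a log2 fold change of -0.03. The run on scaffold 11 from 397573 to 404169 held RTO4_9845 to RTO4_9848. RTO4_9847, between the transporter paralogs RTO4_9846 and RTO4_9848, was 2.44-fold higher, and RTO4_9845 was not called with the libraries as labelled or with a minimum FPKM of 10.

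The runs of 4 genes called higher on scaffolds 3 and 12 had smaller changes. On scaffold 3, from 293962 to 302579, RTO4_12854, an ortholog of CPS1, a vacuolar carboxypeptidase of S. cerevisiae, was 4.93-fold higher. Its neighbor RTO4_12855, an ortholog of PLC1, the phospholipase C of S. cerevisiae, was 2.63-fold higher. In this run, 2 of the 4 models overlap. In the run of RTO4_10381 to RTO4_10384 on scaffold 12, 3 of the 4 models overlap. The largest decreases in neighboring models were those of RTO4_9135, RTO4_9136 and RTO4_9137 on scaffold 1, from 1828891 to 1834944. These models overlap by 214 and 211 bp, RTO4_9137 is on the other strand, and the models on either side were not called. The runs of 4 genes called lower lay on scaffold 4 and scaffold 20, each with 2 overlapping models and with changes of 2.03-fold to 2.43-fold. RTO4_13521 and RTO4_CAND31 of these were under the fold criterion when any of several single libraries was left out, at log2 fold changes of -0.91 to -0.96.

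**Figure D3:**
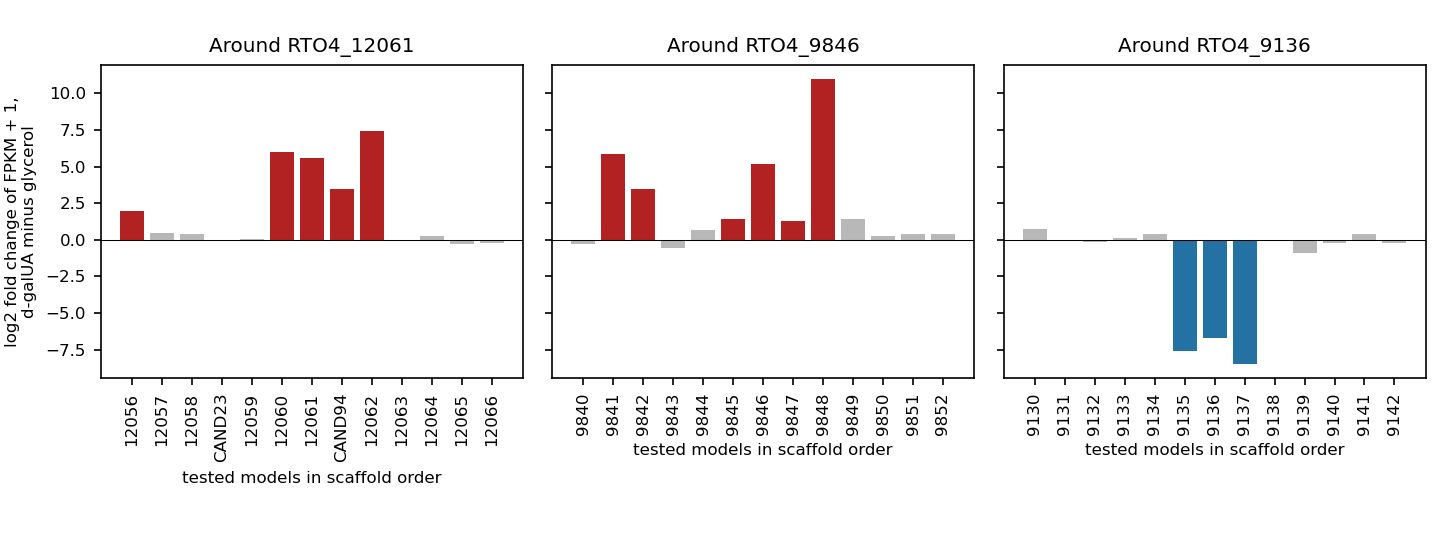
Log2 fold change of FPKM + 1 (d-galUA minus glycerol, y axis) of tested models in scaffold order (x axis) around RTO4_12061, RTO4_9846 and RTO4_9136, with genes called higher in red, called lower in blue and others in grey. The bars change from 7.44 at RTO4_12062 to -0.03 at RTO4_12063, and RTO4_9135, RTO4_9136 and RTO4_9137 are the only blue bars.

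Gene groups were taken from S. cerevisiae ortholog symbols, which the annotation used here gives for 1224 of the genes tested. This annotation comes ordered by d-galUA level and is held down to 49.7 FPKM on d-galUA, with 9 genes below, so a gene that was low on d-galUA mostly could not be a member of a group. Of the genes called lower, 534 of 653 lay under that level on d-galUA, and of those called higher 354 of 589. Among the genes with a symbol, 115 were called higher (9.4%) and 34 lower (2.78%), 449 were higher by the adjusted p alone (36.7%) and 197 lower (16.1%), and the median log2 fold change was 0.17. Counts in the groups are to be read beside these shares. Of the 440 genes in the 29 lists, 49 were called higher and 12 lower.

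**Figure D4:**
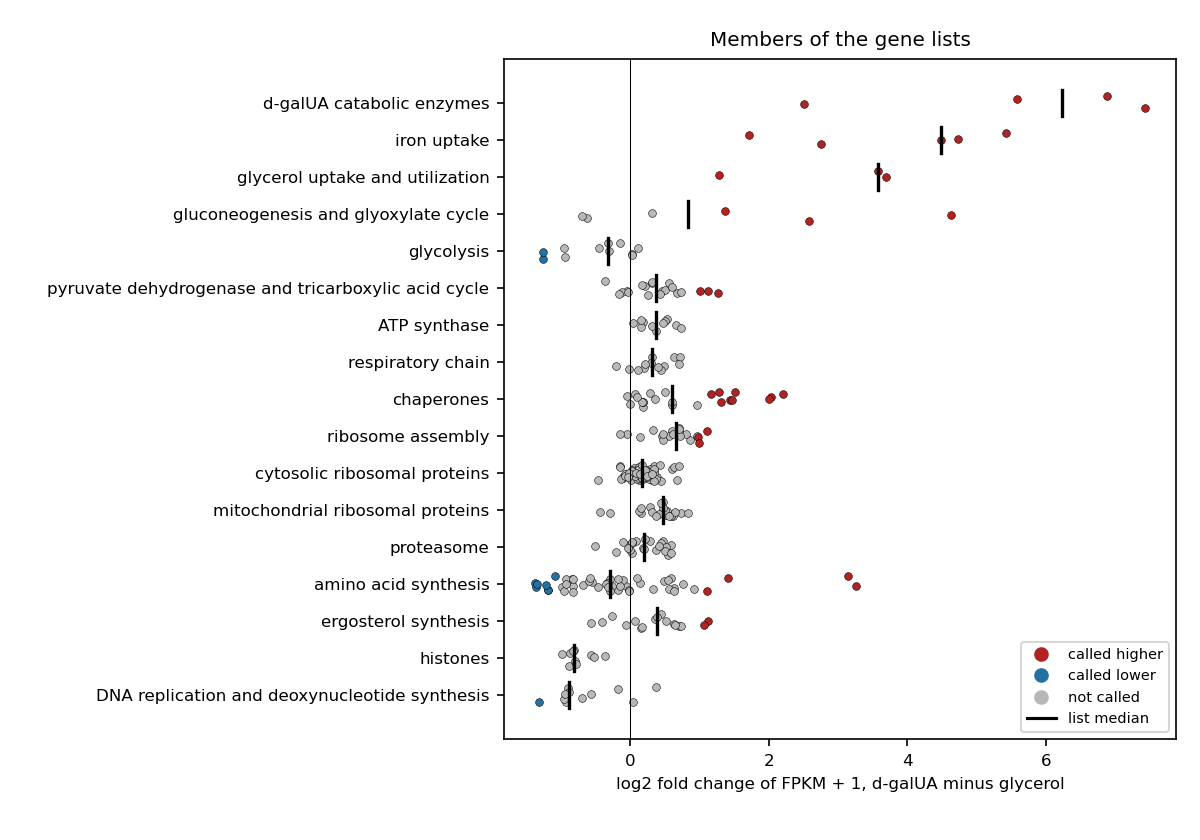
Log2 fold change of FPKM + 1 (d-galUA minus glycerol) of each member of the gene lists, with 17 of the lists as rows, a vertical bar at each list's median, a thin line at 0, and members called higher in red and lower in blue. Iron uptake (median 4.49) and the glycerol genes lie to the right, and histones (median -0.81) and DNA replication (median -0.88) lie to the left of 0, while the median of all genes tested was 0.03.

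All 3 listed genes of glycerol uptake and use were called higher on d-galUA than on glycerol itself. Membership needed an ortholog symbol, mostly held for genes at 49.7 FPKM or more on d-galUA. Genes of glycerol use that were low there could hardly be members. On glycerol the means of GUT2 and GUT1 were 30.6 and 49.4, under that level. Of all 2039 genes at or above it on d-galUA, 235 were called higher and 119 lower. RTO4_10704 is an ortholog of STL1, the glycerol proton symporter of S. cerevisiae. It was at 2379, 2389 and 2316 on d-galUA and at 188, 215 and 189 on glycerol, 12-fold higher (log2 fold change 3.58 ± 0.10 SE, adjusted p = 2.1e-09). RTO4_11039, the ortholog of the mitochondrial glycerol 3-phosphate dehydrogenase GUT2, was at 411, 427 and 377 against 28.4, 28.4 and 35.0. The glycerol kinase ortholog GUT1, RTO4_11022, had the smallest change of the 3, at 129, 119 and 118 against 49.0, 45.1 and 54.2. The ranges of the groups did not overlap for any of them, as for 588 of the 589 genes called higher and 66.7% of all genes tested. All 3 were called with each grouping of the libraries.

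In central carbon metabolism, genes of gluconeogenesis differed in direction, and no glycolytic gene rose. Of 6 genes of gluconeogenesis and the glyoxylate cycle, 3 were called higher and 2 were lower by the adjusted p with changes under 2-fold (median 0.84). RTO4_12605, an ortholog of SFC1, the mitochondrial carrier that exchanges succinate for fumarate in S. cerevisiae, was at 191, 193 and 193 against 6.32, 6.44 and 7.72, 28.2-fold higher. FBP1, the fructose-1,6-bisphosphatase (RTO4_15423), was at 817, 881 and 858 against 142, 134 and 149, 6-fold higher. The pyruvate carboxylase ortholog of PYC1 and PYC2, RTO4_16630, was 2.58-fold higher. PCK1, the phosphoenolpyruvate carboxykinase (RTO4_10841), did not pass the test, at 78.2, 73.0 and 72.0 against 60.5, 57.6 and 60.9 (log2 fold change 0.31, adjusted p = 0.12). The malate synthase ortholog RTO4_9457 (-0.70) and the acetyl-CoA synthetase ortholog RTO4_14597 (-0.62) fell.

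Of 11 glycolytic genes, 6 fell by the adjusted p, none rose, and 2 were called lower (median -0.32). The pyruvate kinase ortholog of CDC19 and PYK2, RTO4_13002, was at 152, 148 and 144 on d-galUA and at 385, 313 and 372 on glycerol, 2.41-fold lower. Enolase, RTO4_9037, was at 318, 341 and 350 against 892, 813 and 723, with the same ratio. The ortholog of the glyceraldehyde 3-phosphate dehydrogenases (RTO4_10613, -0.95) and of phosphofructokinase (RTO4_8867, -0.94) fell by less than 2-fold. Among 20 genes of the pyruvate dehydrogenase complex and the tricarboxylic acid cycle, 12 rose and 1 fell by the adjusted p, and the 3 called higher were all subunits of the pyruvate dehydrogenase complex. PDA1, RTO4_13630, was at 865, 879 and 938 against 357, 366 and 388 (2.41-fold higher), and PDB1 and PDX1 had log2 fold changes of 1.12 and 1.01. PDX1 was under the fold criterion with TPM in place of FPKM and without d-galUA replicate 3 (log2 fold change 0.96 in both). MAE1, the mitochondrial malic enzyme (RTO4_12761), was at 83.8, 86.9 and 86.8 on d-galUA and at 453, 548 and 474 on glycerol, 5.73-fold lower. ZWF1 and GND1, the NADPH-forming dehydrogenases of the pentose phosphate pathway, rose by 1.93-fold and 1.96-fold, just under the fold criterion. Of the 4 galactose genes, only GAL7, the galactose-1-phosphate uridylyltransferase, was called (5.74-fold higher).

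The 5 genes of the iron uptake list were all called higher on d-galUA, with a median log2 fold change of 4.49. In S. cerevisiae these encode the iron permease FTR1, the multicopper oxidases FET3 and FET5, and the siderophore transporters of the ARN family. The annotation is mostly held for genes at 49.7 FPKM or more on d-galUA, so iron genes low there could hardly be members. Of all 2039 genes at or above that level, 235 were called higher and 119 lower. RTO4_11249, of the siderophore transporter family, was at 118, 93.2 and 117 on d-galUA and at 1.09, 1.36 and 2.38 on glycerol, 67.9-fold higher (log2 fold change 5.42 ± 0.17 SE, adjusted p = 5.1e-09). The FTR1 ortholog RTO4_15844 was at 222, 166 and 219 against 6.07, 6.77 and 12.2, 24.3-fold higher. The FET3 and FET5 ortholog RTO4_9364 was at 260, 215 and 253 against 34.8, 33.6 and 36.8. Each of the 3 genes was lowest in replicate 2 among the d-galUA libraries. No library of a group reached the range of the other for these genes, as for 66.7% of all genes tested. RTO4_11669 was 34.0-fold and the other FTR1 ortholog, RTO4_15845, 3.38-fold higher. RTO4_12325, which the study names SIT1, was at 141, 99 and 132 against 2.11, 2.00 and 2.92, 52.9-fold higher.

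Each of the 6 genes had a higher mean level on d-glc than on d-galUA. The 5 genes together took 0.117, 0.0912 and 0.112% of the TPM on d-galUA, 0.00938, 0.00982 and 0.0118% in the glycerol group, and 0.402, 0.386 and 0.359% in the libraries labelled D-glucose 1 to 3. The library labelled D-glucose 4 was thus low for these genes, like the labelled glycerol libraries. With the libraries as labelled, 1 of the 5 genes was called, and without that library all 5 were. RTO4_12825, an ortholog of the zinc transporters ZRT1 and ZRT2 of S. cerevisiae, was at 114, 90.3 and 96.5 on d-galUA and at 9.17, 9.35 and 12.3 on glycerol, 9.77-fold higher.

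Of 23 chaperone genes, 14 were higher and none lower by the adjusted p, and 9 were called higher (median 0.61). The list took 1.32, 1.27 and 1.28% of the TPM on d-galUA and 0.593, 0.667 and 0.663% on glycerol. In the libraries labelled D-glucose 1 to 3 its share was 1.6, 1.27 and 1.11%, so glycerol was the low group. RTO4_11492, the ortholog of HSC82 and HSP82 (the Hsp90 chaperones of S. cerevisiae), was at 2188, 2007 and 2028 against 432, 462 and 451, 4.63-fold higher (log2 fold change 2.21 ± 0.11 SE, adjusted p = 1.6e-07). The Hsp70 family gene RTO4_9983 was at 1100, 1079 and 1049 against 260, 242 and 310. The mitochondrial chaperonin genes HSP10 (RTO4_10154) and HSP60 (RTO4_10153) were 4.14-fold and 2.88-fold higher, with HSP10 at 291, 276 and 297 against 66.3, 66.9 and 75.5. The other genes called were the Hsp90 cochaperones CPR6 (2.83-fold) and AHA1 (2.77-fold), another Hsp70 family gene, RTO4_8976 (2.48-fold), the ortholog of the Hsp70 exchange factors SSE1 and SSE2 (2.45-fold), and the J-protein SIS1 (2.30-fold). The 8 measured subunits of the cytosolic chaperonin CCT, which folds actin and tubulin, did not pass the test, with log2 fold changes of -0.05 to 0.19. All 9 genes were called with each grouping of the libraries.

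**Figure D5:**
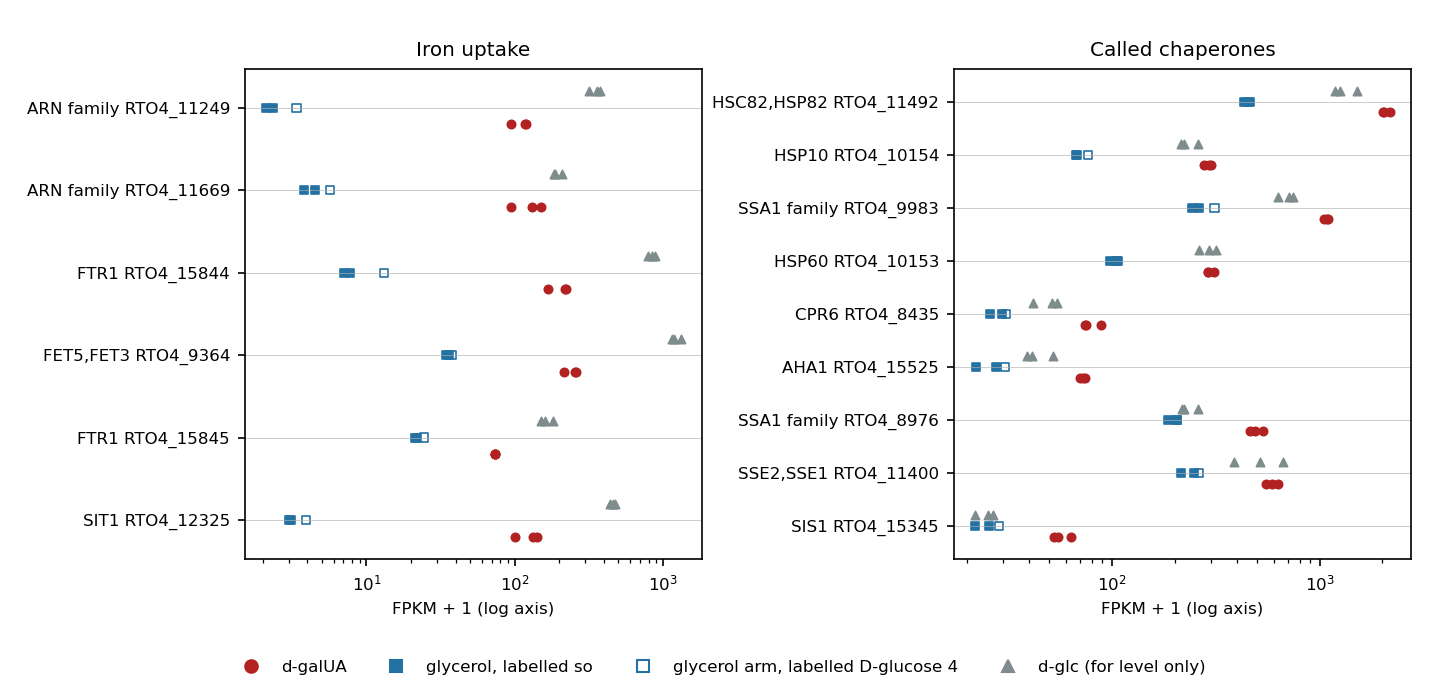
FPKM + 1 in each library (x axis, log) for genes of iron uptake with RTO4_12325 and for the chaperones called higher (rows), with d-galUA as red circles, labelled glycerol as filled squares, the library labelled D-glucose 4 as an open square and d-glc as grey triangles. In FPKM, the FTR1 ortholog RTO4_15844 is at 166 to 222 on d-galUA and 6.07 to 12.2 in the glycerol group, and RTO4_11492 is at 2007 to 2188 and 432 to 462.

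Histone and DNA replication genes were lower on d-galUA, mostly by less than 2-fold. All 10 histone genes measured fell by the adjusted p, with log2 fold changes of -0.99 to -0.36, and none met the fold criterion. They took 1.72, 1.77 and 1.89% of the TPM on d-galUA, 3.42, 3.21 and 3.02% on glycerol, and 1.67, 1.86 and 2.14% on d-glc. The histone H4 ortholog RTO4_9231 was at 1338, 1272 and 1335 against 2934, 2517 and 2437 (log2 fold change -0.99 ± 0.15 SE). Without the library labelled D-glucose 4, RTO4_9231 and the histone H2B ortholog RTO4_12091 were called lower. Of 11 genes of DNA replication and deoxynucleotide synthesis, 8 fell, none rose and 1 was called lower. The ribonucleotide reductase ortholog of RNR1 and RNR3, RTO4_11290, was at 245, 233 and 233 on d-galUA and at 539, 704 and 540 on glycerol, 2.51-fold lower. POL30, the sliding clamp PCNA (RTO4_16318), was at 179, 164 and 159 against 325, 317 and 335, and MCM7 of the replicative helicase fell by 0.93 on the log2 scale. MCM4, another helicase subunit, which the study names (RTO4_13697), was at 42.8, 38.5 and 37.9 against 105, 103 and 109, 2.66-fold lower.

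Genes of amino acid synthesis differed in direction. Of 49, 12 rose and 27 fell by the adjusted p, 4 were called higher and 7 lower, and the median was -0.29. Their share of the TPM was 1.69, 1.67 and 1.68% on d-galUA and 2.12, 2.30 and 2.16% on glycerol. Those called lower included 2 orthologs of ARO3 and ARO4, the entry enzymes of aromatic amino acid synthesis. RTO4_12155 of these was at 69.7, 72.3 and 76.5 against 188, 191 and 193, 2.62-fold lower. Also called lower were ARG3 of arginine synthesis (2.62-fold), the ortholog of SER3 and SER33 of serine synthesis (2.58-fold), and the genes TRP5, HOM3 and THR4 of tryptophan, methionine and threonine synthesis. Of the 4 called higher, RTO4_10577, an ortholog of SPE3 and LYS9, of spermidine and lysine synthesis, was at 101, 89.8 and 92.6 against 7.87, 10.4 and 8.64, 10.5-fold higher. ILV3, the dihydroxyacid dehydratase of branched-chain amino acid synthesis (RTO4_14626), was at 321, 292 and 262 against 35.6, 29.1 and 31.3, 9.11-fold higher. LYS12 and HIS2 were 2.68-fold and 2.20-fold higher. TRP5 was not called with the libraries as labelled.

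Ribosome assembly genes were mostly higher on d-galUA. Of 20 assembly genes, 16 rose and none fell by the adjusted p (median 0.66), and RRP3, PWP1 and HAS1 were called, all close to the fold criterion and none of them with the libraries as labelled. HAS1 and PWP1 also lost the call without 4 and 2 of the single libraries, respectively, with log2 fold changes down to 0.90 and 0.94. Without the library labelled D-glucose 4, MAK16 and NMD3 were called too, which made 5. The assembly genes took 0.304, 0.311 and 0.315% of the TPM on d-galUA and 0.212, 0.215 and 0.219% in the glycerol group. In the libraries labelled D-glucose 1 to 3 their share was higher, at 0.59, 0.484 and 0.469%. Of 75 cytosolic ribosomal protein genes, 8 rose, none fell and none was called (median 0.17). They took 19.8, 19.2 and 19.8% of the TPM on d-galUA and 18.4, 16.6 and 16.3% in the glycerol group. Of 22 mitochondrial ribosomal protein genes, 13 rose and 1 fell (median 0.47), with none called. The 19 aminoacyl-tRNA synthetase genes had 4 higher and 4 lower and a median of 0.05, which was -0.00 with TPM. Of 23 proteasome genes, 9 rose, 1 fell and none was called (median 0.20).

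Few genes of respiration and of lipid synthesis met the fold criterion. Of 13 respiratory chain genes 4 rose, of 11 ATP synthase genes 6 rose, of 6 pentose phosphate genes 3 rose and 1 fell, and none of these 30 was called. In fatty acid and triacylglycerol synthesis, 6 of 12 rose and 1 fell, and IFA38, a reductase of fatty acid elongation, was called (log2 fold change 1.21), though not with the libraries as labelled. Without the library labelled D-glucose 4, SLC1, an acyltransferase of phosphatidic acid synthesis, was called as well, at 1.02. In ergosterol synthesis, 10 of 17 rose and 2 fell, with ERG5 (1.13) and ERG3 (1.07) called higher. ERG3 was not called without the library labelled D-glucose 4, and neither was with the libraries as labelled. The largest change among lipid genes was in phospholipid synthesis, where PGS1, the phosphatidylglycerol phosphate synthase that begins cardiolipin synthesis (RTO4_12596), was at 144, 168 and 153 on d-galUA and 10.9, 13.2 and 11.7 on glycerol, 13.0-fold higher. In the same list INO1, the inositol 3-phosphate synthase, was called higher (1.11), and 5 of 11 rose and 1 fell. Of 10 beta-oxidation genes 2 rose and 3 fell, and of 7 glycogen and trehalose genes 1 rose and 3 fell, with none called in either list.

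The remaining lists held single genes with large changes. Of 15 antioxidant genes, 8 rose and 2 fell by the adjusted p, and GTT1, a glutathione transferase (7.60-fold), and TSA1, a peroxiredoxin (6.10-fold), were called higher, TSA1 not with the libraries as labelled. In chitin and glucan synthesis, 2 of 9 rose and 4 fell. CDA2, a chitin deacetylase (RTO4_14623), was at 743, 661 and 703 against 132, 129 and 114, 5.62-fold higher, with a d-glc mean of 4.04, and was not called with the libraries as labelled. Of 6 sulfate assimilation genes 2 rose, and MET14, the adenylylsulfate kinase, was called (2.39-fold higher). Of 11 vacuolar ATPase genes 3 rose and none was called.

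The study names 51 genes in its text and tables, and some were chosen on these libraries. Of these, 16 were called higher, 5 lower and 30 were not called. Over all genes tested, 6.95% were called higher and 7.7% lower. The named genes include those that the study selected for at least 2-fold higher transcript levels on d-galUA. Their calls, and part of the count of 16, follow from that selection. OPT1 (RTO4_13539), an oligopeptide transporter in S. cerevisiae, was at 209, 204 and 204 on d-galUA and 420, 491 and 421 on glycerol, 2.16-fold lower. RTO4_13270, a transcription factor of the Zn2Cys6 class, was at 96.2, 92.7 and 89.1 against 12.5, 11.3 and 13.4, 7.46-fold higher. SNF1 and SNF4, of the S. cerevisiae kinase that responds to glucose limitation, were not called, at log2 fold changes of -0.36 and 0.01.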

How the data were processed

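Enriched mRNA was sequenced by the authors as 50-bp single-end reads, mapped with HISAT2 2.1.0 and quantified per gene with StringTie 1.3.3b, with bcl2fastq 2.17 and CASAVA named in the submitters' processing notes. The authors deposited FPKM (relative to gene length and library), TPM (scaled to the same total in each library) and coverage (mean read depth over a gene) for 9 libraries. No counts were used, and strand in counting and the handling of multi-mapping reads are not given in the sources used here. Depth per library (25.8 to 36.9 M mapped reads in the 6 libraries compared) came from coverage divided by FPKM.

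Levels were tested as log2(FPKM + 1), a scale that understates changes of low genes, with limma 3.58.1 in R 4.3.3 with a mean-variance trend, in 1 fit of all 9 libraries in 3 groups and the contrast d-galUA minus glycerol, with Benjamini-Hochberg adjustment over the 8479 genes with FPKM above 0 in at least 1 library. The scripts were tested on simulated data. Fold values are ratios of mean FPKM. Genes listed at 0 in 1 library with 10 FPKM or more in another of the same group numbered 29, so a 0 can be a failed estimate. The genes named were the 10 with the largest ratio in each direction, the 10 most abundant called genes in each direction, members of the lists, genes the study names, and genes of the longest runs of adjacent called models and beside RTO4_12061 and RTO4_12062. The genes and lists were chosen with earlier results of these data known. Lists rest on S. cerevisiae ortholog symbols. Alternatives covered pseudocount, filters, FPKM minimum, fold, test, scaling, grouping, replicate block and leaving out libraries. Python 3.11.15, pandas 2.3.3, numpy 2.4.6 and matplotlib 3.10.9 were used. Fitness and growth assays were not analysed here.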

Additional observations from a re-analysis of the deposited data

Results flagged for a closer look

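The library labelled D-glucose 4 stood apart from the other libraries with that label. Its mean correlation over log2(FPKM + 1) with the 2 labelled glycerol libraries was 0.988, while the libraries labelled D-glucose 1, 2 and 3 had 0.876, 0.880 and 0.879. Its gap to the nearest of the others was 0.960 of the whole range of these 4 values. A gap above 0.829 of the range was flagged, which chance gives in about 1 in 20 such groups of 4. The library had already been singled out by its match to the study's glycerol column, so the flag is no separate test.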

How the results depend on the processing

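Without a fold criterion, 1882 genes were called higher and 1880 lower, and with a 4-fold criterion 191 and 214. With the libraries as labelled the counts were 412 and 392, and without the library labelled D-glucose 4 they were 609 and 629 (613 and 630 in a fit of the remaining 5 libraries of the comparison, an alternative chosen after seeing the data). Leaving out each of the other libraries in turn gave 583 to 596 higher and 645 to 680 lower. The replicate number as a block gave 585 and 644. The labels do not say that a number pairs cultures, only 2 pairs exist, and the deviations of same-numbered libraries correlated at 0.022 and -0.051. Among the other alternatives the counts lay between 499 and 791 higher and between 608 and 773 lower, with TPM at 570 and 733. No named gene reversed its direction, but the lower calls no longer outnumbered the higher with the libraries as labelled, with no minimum FPKM (791 and 773) or without a fold criterion. Of 232 named genes and list members followed, 57 lost the call with the libraries as labelled, 6 without the library labelled D-glucose 4, 11 with TPM and 7 with quantile normalization, and none changed with the block. Depth limits genes of few reads, for which a value of 0 may be a failed estimate, and no counts were used to bound them.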

Other observations

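Genes outside the lists were looked at after their values were seen, among those with an S. cerevisiae ortholog symbol: 73 were called higher and 24 lower. Over all genes with a symbol, in the lists or not, 9.4% were called higher and 2.78% lower. The shares over all genes tested were 6.95% and 7.7%. Symbols are mostly held for genes at 49.7 FPKM or more on d-galUA, which favors higher calls. The examples below leave out RTO4_12060, described above. RTO4_13562 and RTO4_13947, orthologs of the NADPH-dependent alcohol dehydrogenases ADH6 and ADH7, were at 635, 660 and 702 against 11.5, 13.7 and 12.8 and at 1132, 1204 and 1121 against 19.1, 22.5 and 29.3. They were 52.4-fold and 48.8-fold higher on d-galUA, and on d-glc their means were 5.37 and 150. RNY1, the vacuolar ribonuclease (RTO4_12665), was at 2291, 2307 and 2237 against 143, 135 and 119, 17.2-fold higher. The ortholog of the sodium pump genes ENA1, ENA2 and ENA5, RTO4_12846, was 14.5-fold higher, at 321, 276 and 303 against 19.1, 21.1 and 22. An amino acid permease of the CAN1 and GAP1 family (RTO4_14229) was 10.3-fold and UNG1, the uracil DNA glycosylase, 7.69-fold higher. NCP1, the reductase of cytochrome P450 enzymes (RTO4_13286), was at 804, 878 and 837 against 172, 205 and 182.

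The aspartate aminotransferases differed in direction. AAT1, mitochondrial in S. cerevisiae (RTO4_14281), was 3.29-fold higher, at 2122, 2139 and 1974 against 679, 628 and 585. AAT2, cytosolic in S. cerevisiae (RTO4_8936), was 2.22-fold lower, at 80.5, 80 and 76.9 against 182, 168 and 177, and was not called with the libraries as labelled. THI4, of thiamine synthesis (RTO4_16324), was at 197, 155 and 171 against 779, 811 and 812, 4.58-fold lower. The formate dehydrogenase ortholog RTO4_11952 was at 126, 121 and 91.3 against 426, 467 and 399, 3.83-fold lower, with a d-glc mean of 8.95. TNA1, the nicotinic acid permease (RTO4_12221), was 2.53-fold lower, with a d-glc mean of 4.06. Orthologs of DIP5, the permease of acidic amino acids, RTO4_8962 and RTO4_9962, were 2.14-fold and 2.04-fold lower, and RTO4_9962 was not called without the library labelled D-glucose 4. The formate dehydrogenase ortholog, TNA1 and the DIP5 orthologs were not called with the libraries as labelled.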
